A study of Homo sapiens with 51 samples.

Results

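The subject is the family of mitochondrial ribosomal protein genes, taken as every row of the deposited expression table whose symbol is MRPL or MRPS followed by a number and an optional A, B or C. The rule found 75 of 24033 genes, 46 named for the large subunit (MRPL) and 29 for the small subunit (MRPS), and used no measured value. The cells were HMLE, a human mammary epithelial line made immortal, and HMLE-TWIST1, the same line carrying TWIST1, a transcription factor that drives epithelial to mesenchymal transition. Total RNA was sequenced in 51 libraries from 17 groups of 3. HMLE and HMLE-TWIST1 received DMSO for 48 h (day 2), or DMSO for 15 h and then fresh medium for 48 h (day 4). HMLE-TWIST1 alone received chaetocin, a fungal compound that inhibits SUV39H1 and SUV39H2, the enzymes that methylate histone H3 at lysine 9 in heterochromatin, at 100, 150, 200 or 500 nM for 48 h, or at 80 nM for 15 h followed by 48 h without drug. Both lines received either a scrambled duplex or interfering duplexes against SUV39H1 and SUV39H2 together, and were taken at 48 h (day 2) or after 48 h more (day 4). Each line is a single engineered line, the promoter that drives TWIST1 is not given in the sources used here, and the labels do not say that the 3 libraries of a group came from separate cultures. The p-values therefore measure the spread between libraries, which may be technical. In bulk RNA, fewer cells of a type and less RNA per cell cannot be told apart.

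Mitochondrial ribosomes make the few proteins encoded by mitochondrial DNA, which are core subunits of the respiratory chain and ATP synthase. Their ribosomal RNAs come from the mitochondrial genome, but every protein of the particle is encoded in the nucleus, made in the cytosol and imported. Some members have bacterial relatives and sit at the decoding centre, the peptidyl transferase centre or the exit tunnel, and others exist only in mitochondrial ribosomes. Symbols do not always match the place in the particle: MRPS30 and MRPS18A carry small subunit names but lie in the large subunit, and MRPS36 belongs to the alpha-ketoglutarate dehydrogenase complex. Counts by subunit below follow the symbols. Transcription factors of the ETS family (GABP), NRF1 and YY1 are known regulators of nuclear genes for mitochondrial proteins.

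The promoters of 4 members are shown because these genes recur below: MRPL3 and MRPL47 were higher after drug washout, MRPS10 was lower after knockdown in HMLE-TWIST1, and MRPS14 fell furthest with chaetocin. The sequences come from RefSeq on GRCh38.p14, which is not the build of the expression table (hg19), and run from 170 bases before the annotated start to 30 bases from it, all on the minus strand. Capitals mark matches on either strand to CCGGAAG (ETS core), the NRF1 word (GCGCA, any base, GCGC) or AAGATGGC (YY1, written GCCATCTT where it lies on the other strand). The windows are chr3:131502942-131503141, chr3:179604609-179604808, chr6:42217832-42218031 and chr1:175023396-175023595, in the order printed.
MRPL3: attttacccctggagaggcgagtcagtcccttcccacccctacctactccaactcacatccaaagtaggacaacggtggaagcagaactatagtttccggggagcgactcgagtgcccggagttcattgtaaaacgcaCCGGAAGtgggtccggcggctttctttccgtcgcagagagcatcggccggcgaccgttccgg
MRPL47: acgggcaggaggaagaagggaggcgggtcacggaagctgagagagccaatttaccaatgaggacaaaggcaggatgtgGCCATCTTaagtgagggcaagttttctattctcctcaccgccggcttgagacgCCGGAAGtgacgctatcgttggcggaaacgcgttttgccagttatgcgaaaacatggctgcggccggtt
MRPS10: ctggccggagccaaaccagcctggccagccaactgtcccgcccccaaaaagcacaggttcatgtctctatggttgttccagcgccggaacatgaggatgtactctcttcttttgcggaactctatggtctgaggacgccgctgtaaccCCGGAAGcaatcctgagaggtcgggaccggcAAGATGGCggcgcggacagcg
MRPS14: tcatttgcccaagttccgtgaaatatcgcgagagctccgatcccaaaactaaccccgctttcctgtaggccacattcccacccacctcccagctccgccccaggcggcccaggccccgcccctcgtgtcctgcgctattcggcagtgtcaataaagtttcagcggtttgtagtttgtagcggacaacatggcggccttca
MRPL3 holds the ETS core at -32 from the start, MRPL47 the ETS core at -39 and the YY1 word at -92, and MRPS10 the ETS core at -22 and the YY1 word at +9. The MRPS14 window holds none of these letters.

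Across the family, 66 of 75 members matched a RefSeq promoter, scanned from 250 bases before to 50 after the start. The ETS core was in 40.9% of them, against 14.2% of 15842 protein-coding promoters and 33.9% of 62 cytosolic ribosomal protein promoters. The YY1 word was in 30.3%, against 3.91% of all promoters and 9.68% of cytosolic ribosomal protein promoters. The NRF1 word (9.09% against 8.57%), the E-box CACGTG (9.09% against 8.88%) and GGGCGG (62.1% against 58.5%) were close to the share over all promoters. A start of another protein-coding gene on the other strand lay within 1000 bases for 24.2% of members, against 10.5% of all. MRPL49 and FAU, which encodes a cytosolic ribosomal protein, are 49 bases apart, MRPL18 and the chaperonin gene TCP1 210 bases, and the pair MRPS11 and MRPL46 320 bases. Of the 5 largest rises after washout among members without overlap of groups, MRPL24, MRPL18 and MRPS6 held none of the ETS, YY1 and NRF1 words. MRPL47 held the ETS and YY1 words, and MRPL36 the YY1 and NRF1 words. These are matches of letters and positions and show no binding, and a link between them and expression was not tested.

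By length-scaled level (mean log2 RPKM over the groups), MRPL18 was highest at 5.70, with group means from 4.72 to 6.48, followed by MRPS35 at 5.27 and MRPL39 at 5.15. The lowest were MRPL38 at -1.80, MRPS24 at -0.99 and MRPL12 at -0.26, then MRPS17 at -0.14, MRPL53 at 0.19 and MRPL46 at 0.27. All 6 of these share over 10% of their exon bases with another gene on the same strand. That is so for 3 of the other 69 members, MRPS28 (35.8%), MRPL33 (21.1%) and MRPL20 (10.5%). The overlaps come from a GENCODE annotation of GRCh38, not the hg19 build used for the reads. The overlap reached 68.2% for MRPL12, a factor-binding stalk protein, so the reads of these 6 and of the 3 others are uncertain. MRPL12 was not tested in 6 of the comparisons at day 4 because its reads fell under the minimum, and all other members were tested throughout.

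Libraries held 7897045 to 15662385 reads in listed genes, of which the family took 15622 to 41415. TWIST1 and the markers followed the labels: 8 of 8 epithelial markers were lower and 8 of 8 mesenchymal markers higher in HMLE-TWIST1 in each of 4 comparisons of the lines. After the duplexes, SUV39H1 was 2.48 against 6.12 CPM (reads scaled to library size) in HMLE and 4.56 against 12.4 CPM in HMLE-TWIST1 at day 2. At day 4 it was 1.67 against 3.18 CPM and 4.22 against 8.78 CPM. SUV39H2 was 6.37 against 8.37 CPM and 19.3 against 44.5 CPM at day 2, and 4.45 against 6.39 CPM and 22.7 against 39.8 CPM at day 4. Of markers of other cell types, the leukocyte gene PTPRC was at 0.0634 CPM in HMLE-TWIST1 and 0.0791 CPM in HMLE in DMSO at day 2, and the adipocyte gene FABP4 was at 20.1 CPM in HMLE and 0.0366 CPM in HMLE-TWIST1. In that comparison 2 of 3 leukocyte markers tested were lower in HMLE-TWIST1 and 0 higher. Of 2 endothelial markers tested, 1 was higher (log2 difference 2.55) and 1 lower (-1.69).

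The summed share of reads shows the main pattern over groups. In HMLE the family took 0.254, 0.271 and 0.278% of reads in DMSO at day 2 and 0.181, 0.190 and 0.194% at day 4. With the scrambled duplex the HMLE shares were 0.204, 0.210 and 0.217% at day 2 and 0.149, 0.150 and 0.153% at day 4, the lowest of all groups. In HMLE-TWIST1 the shares stayed between 0.223 and 0.259% in all DMSO and scramble libraries, so the lines exchanged rank between DMSO at day 2 and the other controls. The 15 chaetocin libraries lay between 0.262 and 0.316%, above every HMLE-TWIST1 control library. These shares lack the scaling used in the tests. With it, the summed CPM of HMLE-TWIST1 in DMSO at day 2 was 2472 to 2616. The lowest library was 2608 at 100 nM, 2606 at 150 nM, 2619 at 200 nM and 2541 at 500 nM, so 100, 150 and 500 nM overlapped DMSO. After washout the sum was 2618 to 2839 against 2191 to 2300 in DMSO at day 4. By their pattern of missing genes, the 100 to 500 nM libraries also lie in a separate portion of the table, which the sample labels do not name.

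**Figure D1:**
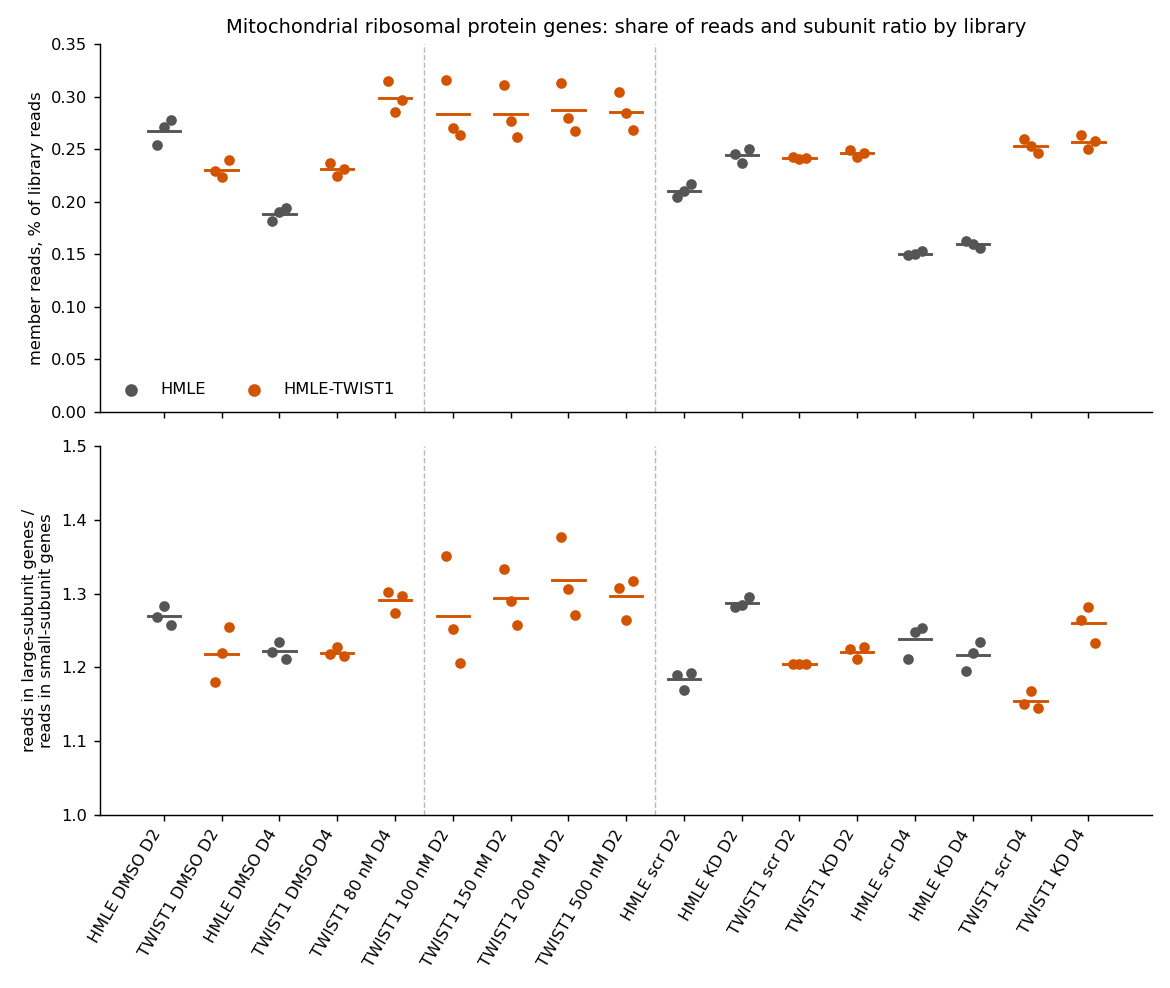
Upper panel, reads in the 75 mitochondrial ribosomal protein genes as a percentage of library reads, with 1 point for each of 51 libraries in 17 groups. Lower panel, summed reads of the 46 MRPL genes divided by those of the 29 MRPS genes in the same libraries. HMLE scramble libraries at day 4 sit lowest, at 0.149 to 0.153%, and the chaetocin libraries, at 0.262 to 0.316%, sit above all HMLE-TWIST1 control libraries and partly level with HMLE in DMSO at day 2. With the scaling used in the tests, the summed CPM at 100, 150 and 500 nM overlapped DMSO.

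The first question was how the family differed between the epithelial and mesenchymal lines, in 4 comparisons with separate libraries. In DMSO at day 2, 20 of 75 members were lower in HMLE-TWIST1 and 0 higher past an adjusted p of 0.05 (limma on log2 CPM, adjusted over all genes), with a median log2 difference of -0.17. Among all genes 23.2% were lower and 24.1% higher. In DMSO at day 4, 26 of 74 were higher and 9 lower (all genes 33.5% and 33.4%), and 38 and 5 when libraries were scaled by total reads only. With the scrambled duplex, 25 of 75 were higher and 15 lower at day 2 (all genes 35.7% and 33.3%; 39 and 10 by total reads), and 42 of 74 higher and 4 lower at day 4 (37.6% and 36.8%). The last 3 medians were 0.11, 0.17 and 0.31. By total reads they were 0.33, 0.28 and 0.68, where the medians of all genes were 0.23, 0.15 and 0.38.

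Among the large subunit members, MRPL49 and MRPL48, both specific to mitochondrial ribosomes, were furthest below HMLE. MRPL49 in DMSO at day 2 was 69.2, 61.4 and 71.1 CPM in HMLE and 23.4, 20.2 and 21.2 CPM in HMLE-TWIST1, a log2 difference of -1.63 (SE 0.12, adjusted p = 3e-09). The HMLE libraries were all above the HMLE-TWIST1 libraries, and this held in the other 3 comparisons, with differences of -1.78, -1.66 and -2.04. MRPL48 was 75.8, 74.1 and 80.5 CPM against 21.9, 24 and 28.6 CPM (-1.63, SE 0.14, adjusted p = 3.2e-08). Its later differences were -1.32, -1.42 and -0.82. MRPL21 was 47.9, 46.3 and 47.3 CPM against 22, 18.2 and 20.5 CPM (-1.22, adjusted p = 4.4e-07), with no overlap. In scramble at day 4 MRPL21 differed by -0.33 (adjusted p = 0.0053), and total reads scaling turned this to 0.04 (adjusted p = 0.73). MRPL11, at the base of the factor-binding stalk, was 68.7, 70.7 and 79.2 CPM against 32.1, 31 and 32.7 CPM in DMSO at day 2 (-1.18, adjusted p = 2.7e-07). MRPL11 then differed by -0.37 in DMSO at day 4, a call lost by total reads (adjusted p = 0.18), and by -0.55 in scramble at day 2. In scramble at day 4 it was higher in HMLE-TWIST1 (0.26, adjusted p = 0.016), a call lost without HMLE scramble replicate 3 (0.09) or HMLE-TWIST1 scramble replicate 2 (0.079). MRPS18A was the fourth member lower in all 4 comparisons, at -0.56, -0.51, -0.46 and -0.27, the last becoming 0.10 (adjusted p = 0.37) by total reads.

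Members that were higher in HMLE-TWIST1 appeared in the other 3 comparisons, and 18 were higher in each of these. The share of all genes higher in all 3 was not counted. Of the 26 members higher in DMSO at day 4, 92.3% were also higher in scramble at day 4 (all genes 85.1%). In scramble at day 2, 73.1% of the 26 were higher (all genes 88.2%). MRPL1, a protein of the mobile stalk by the exit site, was 17.8, 22 and 17.7 CPM in HMLE against 33.7, 32.7 and 31.5 CPM in DMSO at day 4 (log2 difference 0.77). It was 12.9, 10.4 and 14.5 CPM against 31.6, 34.1 and 37.4 CPM in scramble at day 4 (1.45), so that every HMLE-TWIST1 library was above every HMLE library. MRPL24, which lies by the exit tunnel, was 15.9, 12.3 and 14.9 CPM against 37.1, 36.9 and 33.3 CPM in scramble at day 4 (1.31, SE 0.11, adjusted p = 4.1e-09). MRPL3, a core large subunit protein, was 36.2, 30.5 and 34.9 CPM against 70.7, 75.0 and 72.9 CPM there (1.10, SE 0.07, adjusted p = 2.1e-10). Of the small subunit, MRPS27, which is specific to mitochondrial ribosomes, differed by 0.59 in DMSO at day 4, 0.39 in scramble at day 2 and 0.94 in scramble at day 4. MRPS5, a core small subunit protein, differed by 0.63 (adjusted p = 8.1e-09) in the last and did not pass in the others (-0.23, 0.15 and 0.08). MRPS7, MRPS12 and MRPL41 passed in none of the 4, with differences from -0.44 to 0.19.

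Growth markers also differed between the lines. All 20 mitosis genes on the list were higher in HMLE-TWIST1 in DMSO at day 4 (median 2.26) and in scramble at day 2 (1.84) and day 4 (3.77), while 1 was higher in DMSO at day 2 (0.11). Their part in the family's differences was not tested. Of 76 cytosolic ribosomal protein genes, 71 were higher and 0 lower in scramble at day 4 (median 0.64) but 0 higher and 42 lower in scramble at day 2 (-0.29). Of 76 nuclear genes for respiratory chain and ATP synthase subunits, 40 were higher and 7 lower in scramble at day 4 (median 0.33). Of 7 other mitochondrial ribosome proteins, such as DAP3, 4 were higher and 0 lower there, as were 10 higher and 2 lower of 16 mitochondrial tRNA synthetases and 8 and 2 of the translation factors. In DMSO at day 2, DMSO at day 4 and scramble at day 2 the lists differed. Translation factors had 0, 3 and 3 higher and 8, 6 and 6 lower. The tRNA synthetases had 1, 6 and 5 higher and 5, 2 and 5 lower. Respiratory chain genes had 7, 21 and 16 higher and 19, 12 and 18 lower. Other ribosome proteins had 0, 3 and 4 higher and 1, 1 and 2 lower.

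**Figure D2:**
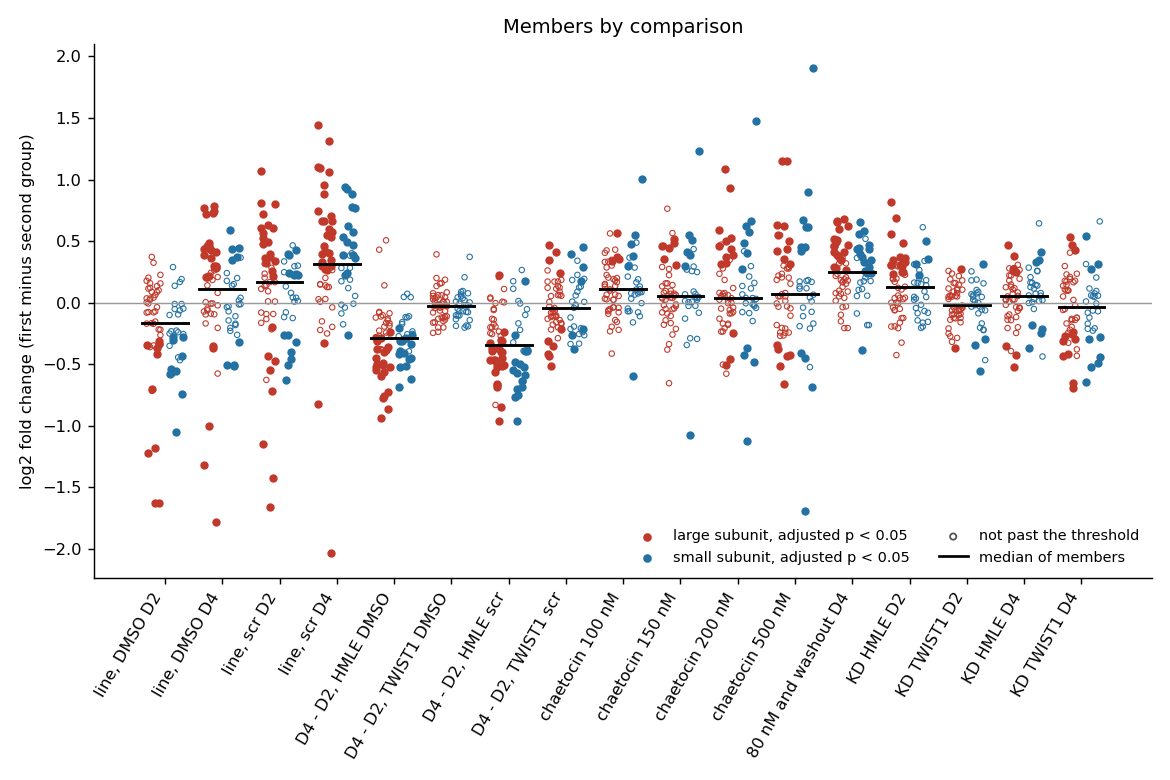
Log2 fold change of each member in 17 comparisons, with large subunit genes in red, small subunit genes in blue, filled points past an adjusted p of 0.05 and a black bar at the median. The family's median was highest between the lines in scramble at day 4 (0.31) and lowest between days 4 and 2 in HMLE with scramble (-0.35).

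MRPL49, MRPL11, MRPL21 and MRPL48, which are 4 of the 5 lowest members in DMSO at day 2, follow each other in this order on chromosome 11, a grouping chosen after their values were seen. All 4 were lower in HMLE-TWIST1 in the first 3 comparisons, and in scramble at day 4 MRPL11 was higher. Of the 129 other protein-coding genes between MRPL49 and MRPL48, 79.8, 87.6, 86.8 and 89.1% were lower in HMLE-TWIST1 in DMSO at day 2, DMSO at day 4, scramble at day 2 and scramble at day 4. Their median log2 differences were -1.14, -1.24, -1.13 and -1.42. In the rest of the chromosome 35.3, 44.9, 44.5 and 48.5% were lower, with medians from -0.19 to -0.12. FAU, the neighbour of MRPL49, differed by -1.25, -1.57 and -0.76 in the last 3. The other chromosome 11 members, MRPL23, MRPL17 and MRPL16, lie before this stretch. MRPL16 was higher in HMLE-TWIST1 in the same 3 (0.79, 0.63 and 1.06), as was MRPL17 (0.36, 0.36 and 0.27). MRPL23 was lower in DMSO at day 2 (-0.41, adjusted p = 0.018) and in scramble at day 2 (-0.72, adjusted p = 3.7e-05) and did not pass in the others (-0.02 and -0.20). Within a line the medians of the stretch were nearer 0, at -0.01 at 500 nM chaetocin, 0.01 after washout, 0.00 for knockdown in HMLE-TWIST1 at day 4 and -0.19 for knockdown in HMLE at day 2. Without the 4 members the counts were 0 higher and 16 lower of 71 in DMSO at day 2, and 41 and 1 of 70 in scramble at day 4. The cause was not tested.

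**Figure D3:**
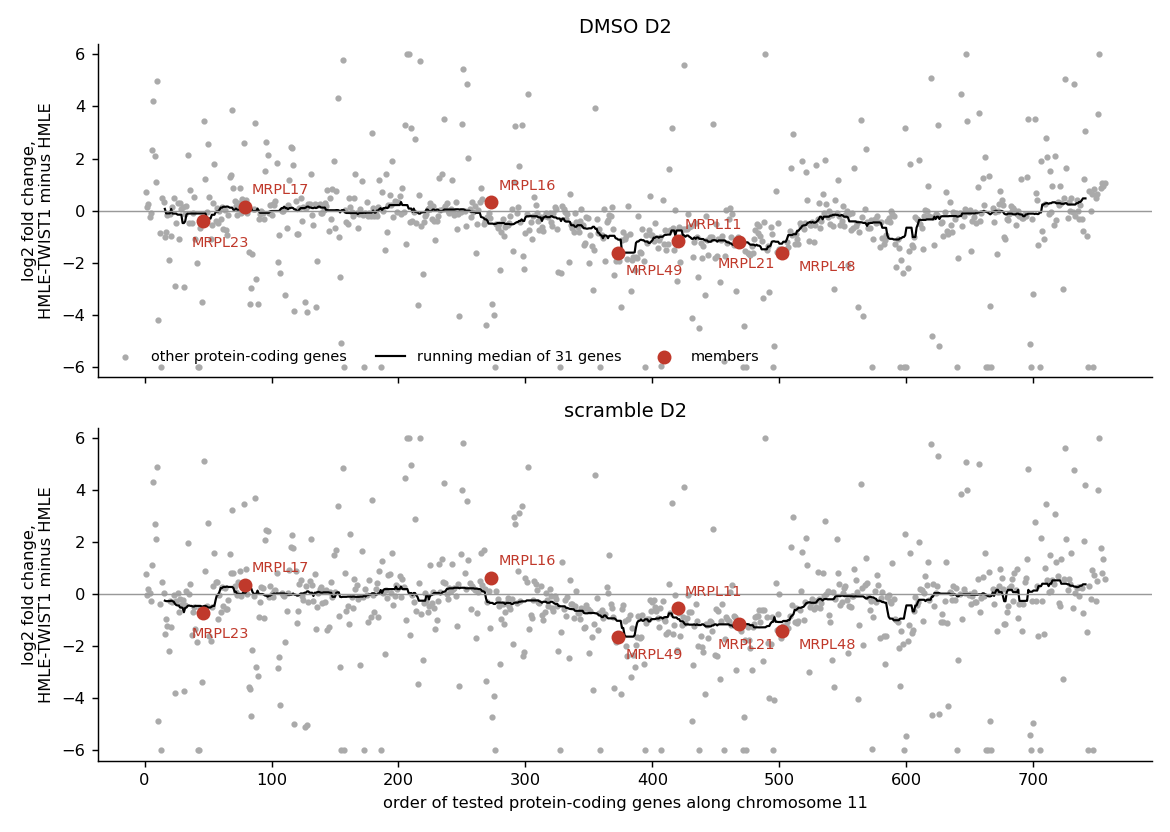
Log2 difference, HMLE-TWIST1 minus HMLE, of protein-coding genes in their order along chromosome 11, in DMSO and scramble at day 2, with a running median of 31 genes and values beyond 6 drawn at 6. From MRPL49 to MRPL48 the running median lies below 0 in both panels.

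Days were compared within each line, and the difference of days between lines was tested with scramble only, not with DMSO. In HMLE with scramble, 39 of 75 members were lower and 2 higher at day 4 than at day 2 (all genes 20.6% and 21.7%), with a median of -0.35. Of these, 23 were large and 16 small subunit genes. MRPS27 was 73.6, 73.5 and 68.9 CPM at day 2 and 34.7, 38.4 and 37.4 CPM at day 4 (-0.96, SE 0.06, adjusted p = 4.6e-13). MRPL11 was 39.6, 42.0 and 47.8 CPM and then 23.4, 22.8 and 20.1 CPM (-0.96, adjusted p = 1.1e-09). Neither overlapped between days. MRPL45, which anchors the ribosome to the inner membrane, fell by 0.67 (adjusted p = 1.1e-06), MRPS5 by 0.50 and MRPL4 by 0.52, while MRPS14, a protein of the small subunit head, did not pass at 0.01.

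With DMSO, which also differs in schedule between days, HMLE again had 39 of 75 members lower at day 4 and 0 higher (all genes 15.4% and 20.6%, median -0.29). MRPL4, a core large subunit protein, fell by 0.86 (adjusted p = 5.7e-06) from 27.4 to 15.0 CPM. MRPL24 was 31.3, 32.2 and 31.9 CPM and then 18.2, 17.1 and 20.4 CPM (-0.78, SE 0.10, adjusted p = 9e-06). MRPL3 was 69.6, 80.8 and 74.8 CPM and then 43.1, 44.2 and 48.6 CPM (-0.73, adjusted p = 2.3e-06). The days did not overlap for MRPL24 or MRPL3. The DMSO and scramble comparisons, which share no library, had 26 lower members in common, 66.7% of each 39. Over all genes the shared lower genes were 60.3% of the DMSO list and 42.9% of the scramble list. All 20 mitosis genes were lower at day 4 in both (medians -2.12 and -2.36), and their part was not tested. Nuclear respiratory chain genes were lower for 37 and 56 of 76, and 66 of 76 cytosolic ribosomal protein genes were lower with scramble while 17 were higher with DMSO.

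In HMLE-TWIST1 cells fewer members passed. With DMSO 0 of 75 members differed between days (all genes 0.147% higher and 0.204% lower), and 1 of 75 had an unadjusted p under 0.05 by limma, against 12.8% of all genes; limma with precision weights (voom) also called 0. With scramble 8 were higher and 9 lower (13.6% and 15.5%), or 11 and 5 by total reads. Without scramble day 4 replicate 1 the counts were 6 and 5, and without scramble day 2 replicate 3 they were 8 and 5. MRPS27 was 97.6, 92.3 and 95.0 CPM and then 75.1, 71.7 and 72.7 CPM (-0.38, adjusted p = 2.1e-05), with no overlap. The test of the difference between lines, (HMLE-TWIST1 day 4 minus day 2) minus the same in HMLE with scramble, called 29 of 75 members higher and 1 lower (all genes 16.6% and 17.8%). MRPL24 went from 23.8, 21.7 and 23.7 to 15.8, 12.3 and 14.9 CPM in HMLE, and from 30.1, 34.7 and 33.5 to 38.1, 37.8 and 34.7 CPM in HMLE-TWIST1. Its day 4 libraries lay below day 2 in HMLE and at or above day 2 in HMLE-TWIST1, a difference of 0.86 between lines. MRPL21 also differed by 0.86, MRPL11 by 0.85, MRPS33 by 0.73 and MRPS25 by 0.70.

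**Figure D4:**
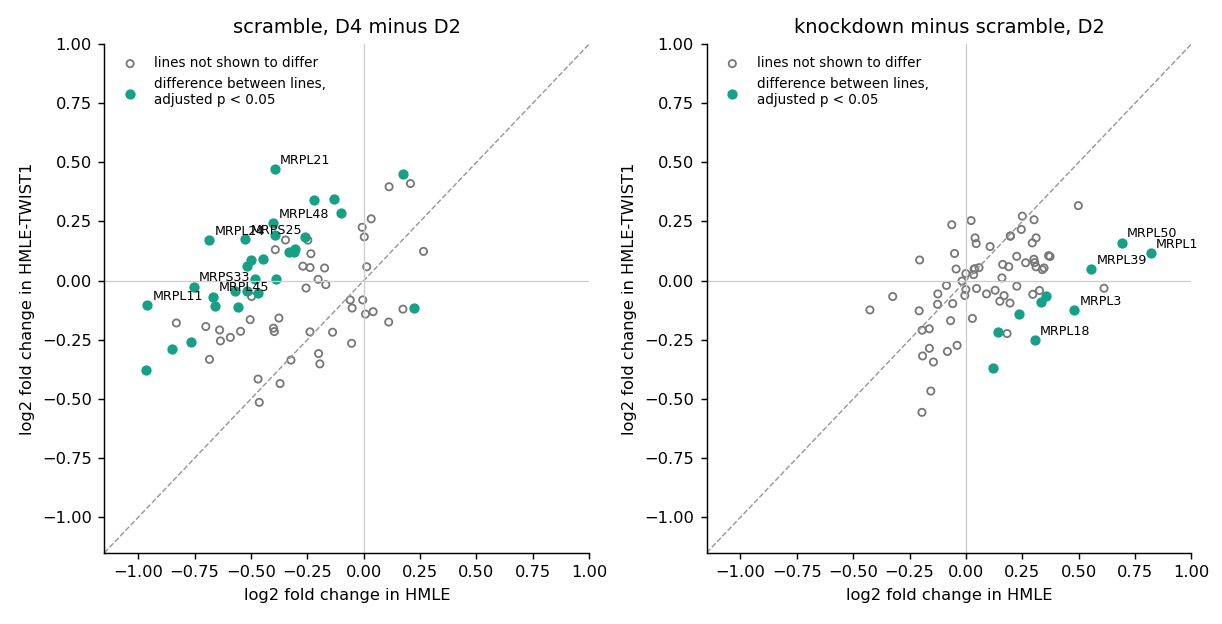
Members' log2 change in HMLE (horizontal) and HMLE-TWIST1 (vertical), left for scramble day 4 minus day 2 and right for knockdown minus scramble at day 2, with filled points where the lines differ past an adjusted p of 0.05. Filled points number 30 on the left, of which 29 lie above the diagonal, and 10 on the right, all below it.

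Chaetocin at 4 doses was compared with DMSO in HMLE-TWIST1 at day 2. By the pattern of missing genes, the dose libraries and the DMSO libraries lie in separate portions of the table. Portion and drug therefore cannot be told apart, and all doses share the DMSO libraries. At 100 nM 9 of 75 members were higher and 1 lower (all genes 11.9% and 11.8%), and at 150 nM 12 and 1 (17.8% and 16.5%). These totals depended on single libraries. At 100 nM the total of 10 came to 3 without DMSO replicate 1 or 100 nM replicate 1 and to 6 without DMSO replicate 2, and at 150 nM the total of 13 came to 6, 8 and 7 without DMSO replicate 1, DMSO replicate 2 and 150 nM replicate 1. At 200 nM 18 were higher and 7 lower (20.9% and 19.1%; 29 and 1 by total reads), and at 500 nM 18 and 10 (26% and 24.8%; 32 and 3 by total reads). Medians were 0.11, 0.05, 0.04 and 0.07, and by total reads 0.27, 0.26, 0.26 and 0.30 against 0.16, 0.21, 0.22 and 0.24 for all genes, with members called in both directions at the higher doses. The lower count at 200 nM came to 3 without DMSO replicate 3 and to 4 without DMSO replicate 1 or 2 or 200 nM replicate 2. MRPL22, MRPL3, MRPS6, MRPS24, MRPS26 and MRPS33 were higher and MRPS14 was lower at every dose.

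MRPS14 fell furthest. It was 32.6, 38.4 and 35.8 CPM in DMSO, 18.8, 20.5 and 33.2 CPM at 100 nM, 14.3, 14.6 and 22.7 CPM at 150 nM, 15.1, 14.4 and 19.5 CPM at 200 nM and 10.8, 10.8 and 11 CPM at 500 nM. Replicate 3 at 100 nM lay inside the DMSO range, and all libraries at the higher doses lay below it. The log2 fold change reached -1.69 (SE 0.20, adjusted p = 3.9e-06) at 500 nM. Against 100 nM, inside one portion of the table, MRPS14 at 500 nM was lower by -1.09 (adjusted p = 0.0031). Its 20 nearest protein-coding genes had a median of 0.10 at 500 nM.

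MRPL16, which lies by the aminoacyl site, was 38.6, 40.4 and 38.0 CPM in DMSO and 26.0, 19.7 and 29 CPM at 500 nM (-0.66, adjusted p = 0.00091). MRPS30 was 78.3, 62.6 and 76.8 CPM in DMSO and 58.3, 39.1 and 39.3 CPM at 500 nM (-0.68, adjusted p = 0.0014). For both genes every 500 nM library was below every DMSO library. MRPS22, specific to mitochondrial ribosomes, was 62.8, 65.5 and 66.9 CPM in DMSO and 57.5, 48.1 and 38.5 CPM at 500 nM (-0.45, adjusted p = 0.0039), a call lost by total reads (adjusted p = 0.16).

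Among members that rose, MRPS6, a small subunit platform protein, was 36.9, 35.9 and 36.3 CPM in DMSO and 57.4, 60.3 and 55.9 CPM at 500 nM. Its fold changes were 0.48, 0.55, 0.62 and 0.67 in order of dose, with an adjusted p of 0.00011 at the highest. MRPL36 was 4.62, 4.18 and 5.31 CPM in DMSO, 8.54, 5.61 and 5.39 CPM at 100 nM and 12, 11.6 and 8.62 CPM at 500 nM (1.15, adjusted p = 0.00076). Every MRPS6 library at every dose was above DMSO, and every MRPL36 library at 500 nM was, while MRPL36 in replicate 3 at 150 nM was 5.10 CPM, inside the DMSO range. MRPS24 rose from 0.659, 1.13 and 1.18 CPM to 2.70, 5.33 and 4.83 CPM at 500 nM (1.90, adjusted p = 4.2e-05), and 23.2% of its exon bases overlap another gene. MRPS12, at the decoding centre, was 5.28, 3.70 and 4.04 CPM against 9.73, 6.48 and 8.62 CPM (0.90, adjusted p = 0.0016). MRPL3 was 73.3, 73.1 and 73.6 CPM in DMSO and 105, 104 and 102 CPM at 500 nM (0.50, adjusted p = 0.0028). MRPL45 rose by 0.62 (adjusted p = 0.0021), whereas MRPL10, MRPL2, MRPL4, MRPS2, MRPS5, MRPS7, MRPL44 and MRPS27 did not pass at 500 nM (-0.04 to 0.29).

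Between 500 and 100 nM, 3 of 75 members were higher and 6 lower (all genes 9.04% and 7.91%), a total that came to 2 without 500 nM replicate 2, 4 without 100 nM replicate 3 and 5 without 100 nM replicate 1 or 500 nM replicate 3. MRPL1 was lower by -0.49 (adjusted p = 0.0066). In the dose groups, replicate 1 had the larger share of family reads, at 0.316, 0.311, 0.313 and 0.304%, and replicate 3 the smaller, at 0.264, 0.262, 0.267 and 0.268%. At 500 nM 4 of 76 nuclear respiratory chain genes were higher and 21 lower (median -0.15), and of the mitochondrial translation factors 7 were higher and 2 lower, among them LRPPRC, a mitochondrial mRNA stability factor, at 284 against 230 CPM (0.31, adjusted p = 0.0018). MYC, a transcription factor, was 133 against 80.3 CPM (0.73, adjusted p = 0.0063). It was 1 of several regulators examined, the others are not given here, and its part was not tested. Mitosis genes were higher for 19, 17, 18 and 14 of 20 across the doses. Epithelial markers were higher for 4, 4, 5 and 5 of 8 and mesenchymal markers lower for 3, 5, 5 and 5 of 8. Of 3 leukocyte markers measured, 2 were higher at every dose: PTPRC, at 0.969 CPM at 100 nM and 3.00 CPM at 500 nM against 0.0634 CPM in DMSO, and ITGAM, at 3.03 and 7.99 CPM against 0.0562 CPM. CD14, the third, was 2.20 CPM at 500 nM and 2.16 CPM in DMSO. The part of these markers in the family's changes was not tested.

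**Figure D5:**
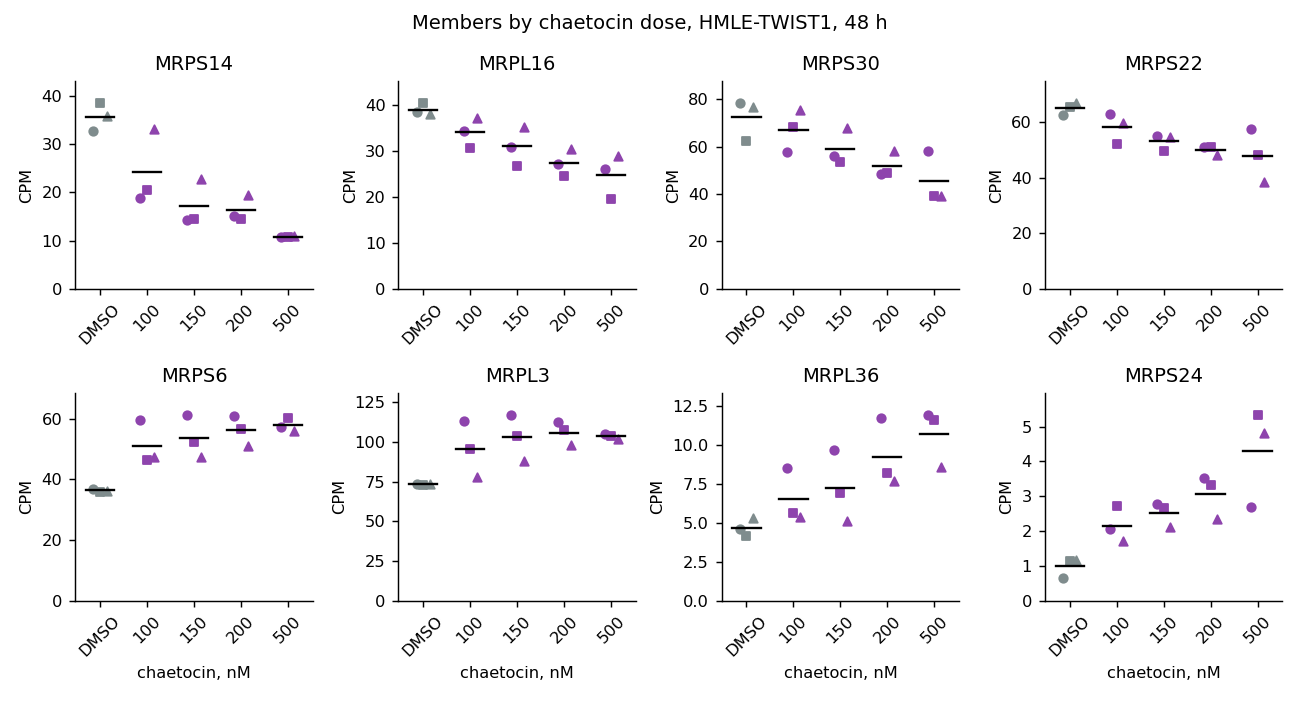
CPM per library (linear axis) for 8 members in DMSO and at 100, 150, 200 and 500 nM chaetocin in HMLE-TWIST1 at day 2, with circle, square and triangle for replicates 1, 2 and 3. MRPS14 declines to 10.8 to 11 CPM at 500 nM, and at 500 nM MRPS6, MRPL36 and MRPS24 lie above their DMSO libraries.

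A lower exposure followed by drug-free medium was compared with DMSO on the same schedule. After 80 nM for 15 h and 48 h of washout, 34 of 74 members were higher than in DMSO at day 4 and 1 was lower (all genes 19.4% and 17.3%), with a median of 0.25. These were 19 of 45 large and 15 of 29 small subunit genes, and both groups lie in the same portion of the table. MRPL24 was 32.7, 31.9 and 31 CPM in DMSO and 50.5, 49.5 and 53.5 CPM after washout (0.68, SE 0.09, adjusted p = 3.9e-05). MRPL18, a large subunit protein, was 77.4, 63.0 and 68.5 CPM and 120, 100 and 110 CPM (0.66, adjusted p = 6.8e-05). MRPL47, an exit tunnel protein, was 18.4, 21.0 and 17.3 CPM and 31.2, 28.3 and 30.0 CPM (0.66, adjusted p = 0.00016). Each washout library was above each DMSO library for all 3. MRPL3 was 67.3, 60.2 and 60.8 CPM and 96.2, 87.6 and 85.3 CPM (0.51, adjusted p = 0.00017). Of the small subunit, MRPS6 was 36.2, 33.0 and 23.3 CPM and 49.3, 44.9 and 49.8 CPM (0.66, adjusted p = 0.0015), MRPS2 rose by 0.43 (adjusted p = 0.0093) and MRPS18B by 0.40 (adjusted p = 0.0092). MRPS14 was again the member that was lower, at 29.6, 31.5 and 38.6 CPM against 23.2, 25.2 and 27.4 CPM (-0.39, adjusted p = 0.014). That call was lost by total reads (adjusted p = 0.053), without DMSO replicate 3 (0.082) and without 80 nM replicate 1 (0.066). MRPS5, MRPS7, MRPL2, MRPL10 and MRPL45 did not pass (0.05 to 0.32).

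The washout and 500 nM comparisons have separate controls and shared 13 higher members, 38.2% of the 34 and 72.2% of the 18. Over all genes 64.9% of those higher after washout and 55.9% of those higher at 500 nM were shared. MRPL18 stands 210 bases from TCP1, which was higher after washout (0.82, adjusted p = 3.1e-07) and at 500 nM (0.86, adjusted p = 0.0019). MRPS2, MRPL37, MRPL40, MRPS18B and MRPS11 were also higher after washout and have such a neighbour within 1000 bases. Their neighbours C9orf116, CYB5RL, HIRA, PPP1R10 and MRPL46 did not pass (-0.42, 0.09, 0.23, 0.09 and -0.15). A link between neighbours was not tested. Other mitochondrial translation genes also rose after washout: 3 of the 7 other ribosome proteins (median 0.24) and 9 translation factors against 1 lower. Among these were the elongation factors TUFM, at 141 against 112 CPM (0.33, adjusted p = 0.0046), and GFM1, at 72.5 against 53.9 CPM (0.43, adjusted p = 0.00028). HSPD1, the mitochondrial chaperonin, was 425 against 244 CPM (0.80, adjusted p = 1.3e-06). Of 76 nuclear respiratory chain genes 13 were higher and 1 lower (median 0.11), and of 76 cytosolic ribosomal protein genes 2 and 4 (-0.08). The mitosis list had 17 of 20 higher (median 0.59), 3 of 8 epithelial markers were higher and 3 of 8 mesenchymal markers lower. The leukocyte marker ITGAM was 5.45 against 0.179 CPM, and CD14 was 1.23 against 2.14 CPM. Their part was not tested.

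Knockdown of SUV39H1 and SUV39H2 was compared with scramble in each line and day. In HMLE at day 2, 20 of 75 members were higher and 0 lower (all genes 14.1% and 14.7%, median 0.13), 16 of them large and 4 small subunit genes. The count was 11 without knockdown replicate 1 and 13 without knockdown replicate 2. MRPL1 rose from 15.3, 14 and 16 to 27.9, 30.3 and 22.5 CPM (0.82, adjusted p = 4.7e-05). MRPL50, specific to mitochondrial ribosomes, rose from 76.2, 71.2 and 77.0 to 122, 127 and 113 CPM (0.69, SE 0.06, adjusted p = 2.4e-07). MRPS9, a small subunit head protein, rose from 45.3, 42.4 and 48.6 to 67.7, 66.3 and 58.8 CPM (0.50, adjusted p = 3.6e-05). No knockdown library overlapped scramble for these. MRPL3 rose by 0.48 (adjusted p = 0.00013) and MRPL11 by 0.37 (adjusted p = 0.0034), while MRPS5, MRPS7 and MRPL4 did not pass (-0.02, 0.02 and 0.03). The mitosis list had 18 of 20 higher (median 0.38), and its part was not tested.

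In HMLE-TWIST1 at day 2, 2 of 75 members were higher and 4 lower (all genes 7.53% and 8.26%; 4 and 4 by total reads), with MRPS9 (0.32) and MRPL48 (0.27) higher and MRPS18B (-0.34) and MRPS16 (-0.30) among the lower. The test of whether the knockdown acted differently in the lines called 10 members, all lower in HMLE-TWIST1 (all genes 5.83% lower and 6.36% higher). MRPL1 differed by -0.70 (adjusted p = 0.0088), MRPL3 by -0.61 (0.0012), MRPL18 by -0.56 (0.01) and MRPL50 by -0.53 (0.00054). The count was 5 without HMLE knockdown replicate 1 and 6 without HMLE knockdown replicate 2 or HMLE-TWIST1 knockdown replicate 3. SUV39H2 itself fell less in HMLE than in HMLE-TWIST1 at both days, as given above, and the part of this in the difference was not tested.

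At day 4 the knockdown moved members both ways. In HMLE 7 of 74 were higher and 7 lower (all genes 11.7% and 14.4%; 9 and 5 by total reads), and the counts were 4 and 7 without scramble replicate 2, 6 and 4 without scramble replicate 3 and 5 and 4 without knockdown replicate 2. MRPS9 rose from 46.6, 40.5 and 38.6 to 55.9, 55.9 and 54.8 CPM (0.41, adjusted p = 0.00061), and MRPL50 from 60.4, 46.1 and 54.2 to 70.0, 66.3 and 71.6 CPM (0.38). MRPL45 fell from 32.5, 32.1 and 38.8 to 24.1, 23.2 and 29.8 CPM (-0.42, adjusted p = 0.0068). All 3 were separate from scramble in every library. In HMLE-TWIST1 6 of 74 were higher and 15 lower (all genes 19% and 19%; 12 and 10 by total reads). MRPL24 fell from 37.1, 36.9 and 33.3 to 24.9, 22.1 and 19.4 CPM (-0.69, SE 0.11, adjusted p = 6.5e-05), and MRPL45 from 37.8, 34.1 and 41.0 to 25.1, 21.6 and 24.6 CPM (-0.66, adjusted p = 0.0001). MRPS10, a protein of the small subunit head, fell from 48.3, 48.4 and 48.3 to 35.6, 27.9 and 29.9 CPM (-0.64, adjusted p = 8.2e-05). MRPS30 fell from 92.3, 94.5 and 99.1 to 67.0, 63.9 and 72.5 CPM (-0.49, adjusted p = 1.3e-05). Each was below scramble in all 3 libraries.

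Risers in HMLE-TWIST1 at day 4 included MRPL17, from 31, 27.5 and 28.5 to 44.1, 45.1 and 37.4 CPM (0.53), and MRPL50, from 67.2, 63.9 and 63.2 to 94.9, 88.4 and 85.8 CPM (0.47, adjusted p = 0.00018). MRPS18C rose by 0.54 (adjusted p = 0.0011) and MRPL49 by 0.43 (adjusted p = 0.0016). The lines share no library, and 6 members were lower in both: MRPL45, MRPL48, MRPS10, MRPS16, MRPS27 and MRPS30, which are 85.7% of the 7 and 40% of the 15. Over all genes the shares were 48.7% and 37.0%. The test of the difference between lines called 2 members higher and 7 lower in HMLE-TWIST1 (all genes 12.2% and 10.7%), among them MRPL24 at -0.66 (adjusted p = 0.005), and 3 and 5 by total reads. The lower count was 3 without HMLE knockdown replicate 1, HMLE-TWIST1 knockdown replicate 1 or 2, or HMLE-TWIST1 scramble replicate 2, and the higher count was 5 without HMLE scramble replicate 2. Of 76 cytosolic ribosomal protein genes 69 were lower at day 4 in HMLE-TWIST1 (median -0.92) and 46 in HMLE (-0.31), and 17 and 11 nuclear respiratory chain genes. The mitosis list had 13 of 20 lower in HMLE-TWIST1 (median -0.37), and its part was not tested. YY1 was 103 against 166 CPM in HMLE-TWIST1 at day 4 (-0.70). Other regulators are not given here, and the part of YY1 was not tested.

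Calls were counted over the comparisons, leaving out the tests of the difference between lines. MRPL22, which lines the exit tunnel, was called higher most often, in 10, then MRPL3 in 9 and MRPL18 in 8. MRPL22 was 34.8, 36.8 and 39.2 CPM in DMSO and 53.8, 43.8 and 44.4 CPM at 100 nM (0.35), and 32.7, 33.8 and 31.1 CPM in DMSO at day 4 and 50.2, 40.0 and 48.0 CPM after washout (0.49). Every treated library lay above its control libraries. The comparisons are not independent, since several share libraries. Calls per gene, including genes called in none, were not counted over all genes, so how unusual these counts are is not known. MRPL38, MRPL27, MRPL41, MRPL53, MRPL46 and MRPS17 were called in none, and 4 of these 6 are among the members with the lowest levels and overlapping exons.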

How the data were processed

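Stranded total RNA depleted of ribosomal RNA was sequenced, per the labels' protocols, and the submitters' processing notes name STAR, HTSeq and hg19 (GRCh37), without versions. The authors deposited log2 RPKM values for 51 named libraries. Genes were missing in 3 patterns, which divide the libraries into 3 portions (DMSO and 80 nM, duplexes, 100 to 500 nM). That these portions were filtered and scaled separately was inferred from the values, not taken from the sample labels. Whole reads were recovered from the steps between values for 100% of values. A further table of counts with 81 unnamed columns was not used.

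Recovered reads were tested as log2 CPM with limma 3.58.1 in R 4.3.3 (statmod 1.5.0), with a prior count of 2, an intensity trend and robust moderation. Library scaling used trimmed means of log ratios (30% of ratios and 5% of levels trimmed). Genes needed the equivalent of 10 reads in 3 libraries and 15 in all. Group means were fitted in 6 models giving 21 comparisons, and p-values were adjusted over all genes by Benjamini-Hochberg with a threshold of 0.05. The procedure was tested on simulated data. The members and lists were chosen with earlier results of these data known.

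Named members were a fixed set by role, up to 5 largest rises and falls per comparison with groups that do not overlap, and the 3 highest and lowest by level; up to 3 genes came from each pathway list. Others named in the text were chosen after their values were seen. Replicate numbers are not stated to mark shared cultures; between 500 and 100 nM, same-numbered libraries deviated together (correlations 0.462, 0.25 and 0.182; differently numbered ones reached 0.335), and the replicate block there left the count of calls at 9. Alternatives covered scaling, prior count, filters, precision weights (voom), the replicate block, the deposited log2 RPKM, the groups of a contrast alone and each library left out.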

Additional observations from a re-analysis of the deposited data

Results flagged for a closer look

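For 49 values the effect of a treatment or of the day differed between HMLE and HMLE-TWIST1 by the test of the difference itself (limma, adjusted p under 0.05 over all genes), in each case as HMLE-TWIST1 minus HMLE. Groups of 3 libraries were not screened for single libraries that stand apart.

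For knockdown minus scramble at day 2 the difference was -0.70 for MRPL1, -0.61 for MRPL3, -0.56 for MRPL18, -0.53 for MRPL50, -0.51 for MRPL39, -0.49 for MRPL24, -0.42 for MRPL19 and MRPS35, -0.37 for MRPL42 and -0.36 for MRPS30. At day 4 it was -0.66 for MRPL24, -0.56 for MRPS26, -0.55 for MRPS33, -0.48 for MRPS9, -0.33 for MRPL3, -0.30 for MRPS15 and -0.25 for MRPS25, and it was 0.49 for MRPL49 and 0.54 for MRPS18C.

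For day 4 minus day 2 with scramble, the differences among MRPL genes were 0.86 for MRPL21 and MRPL24, 0.85 for MRPL11, 0.64 for MRPL48, 0.60 for MRPL45, 0.58 for MRPL4, 0.56 for MRPL23, 0.55 for MRPL37 and 0.54 for MRPL3. Further values were 0.48 for MRPL16 and MRPL42, 0.45 for MRPL9 and MRPL20, 0.44 for MRPL15, 0.43 for MRPL10, 0.41 for MRPL50 and -0.34 for MRPL49. Among the MRPS genes the differences were 0.73 for MRPS33, 0.70 for MRPS25, 0.59 for MRPS5, MRPS27 and MRPS35, 0.56 for MRPS26 and 0.53 for MRPS18B. The rest were 0.50 for MRPS15, 0.49 for MRPS34, 0.44 for MRPS23, 0.39 for MRPS9 and MRPS16 and 0.28 for MRPS30. MRPL49 was the exception in sign, and its call was lost by total reads (adjusted p = 0.54).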

How the results depend on the processing

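Scaling by total reads shifts the median of all genes by up to 0.35, in the comparison of lines with scramble at day 4. It changed the total of members called to 20 at 100 nM chaetocin, 26 at 150 nM, 47 for the difference of days between lines and 59 for days in HMLE with DMSO. It turned MRPL21 to 0.0388 and MRPS18A to 0.10 between lines in scramble at day 4, and the sign of the family's median in 4 comparisons near 0. These were knockdown in HMLE-TWIST1 at day 2 (-0.02 to 0.02) and day 4 (-0.04 to 0.03), 500 against 100 nM (-0.03 to 0.04) and days in HMLE-TWIST1 with scramble (-0.04 to 0.02). With the deposited log2 RPKM the totals were 21 at 100 nM and 20 at 150 nM, and with the groups of the contrast alone 3 at 100 nM and 1 for 500 against 100 nM. The replicate block gave 17 at 100 nM and moved no other count by over 1.5 times. Median-of-ratios scaling, a prior count of 0.5, voom and either filter moved no count by over 1.5 times. The family's median moved by more than the spread between libraries in 11 of 21 comparisons with total reads, among them days in HMLE with DMSO (-0.29 to -0.47) and the difference of days between lines (0.35 to 0.56). The causes were not tested.

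Leaving out each library gave totals of 3 to 13 at 100 nM, 6 to 18 at 150 nM, 2 to 9 for 500 against 100 nM, 11 to 18 for knockdown in HMLE at day 2 and 9 to 16 at day 4. They were 5 to 12 and 4 to 11 for the difference of knockdown between lines at days 2 and 4, and 11 to 16 for days in HMLE-TWIST1 with scramble. Of 228 named member results, 222 kept their call with median-of-ratios scaling, 224 with the block, 218 with voom and 200 with total reads. Members with few reads, such as MRPL12, are limited by depth.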

Other observations

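Among further members, MRPL48 rose at 100 nM chaetocin, at 37.0 against 24.8 CPM (0.56, adjusted p = 0.0091 by limma), and after washout, at 33.7 against 25.3 CPM (0.41, adjusted p = 0.009). Without 100 nM replicate 1 its adjusted p at 100 nM was 0.05. After knockdown MRPL48 was higher at day 2 in HMLE (0.25) and HMLE-TWIST1 (0.27) and lower at day 4 in HMLE (-0.35) and HMLE-TWIST1 (-0.43). MRPL50, whose knockdown response was higher in both lines at day 4, was lower in HMLE-TWIST1 than in HMLE in DMSO at day 2 (-0.70, adjusted p = 4.5e-06) and at day 4 (-0.35). With scramble MRPL50 did not pass at day 2 (-0.09, adjusted p = 0.18) and was higher in HMLE-TWIST1 at day 4 (0.28, adjusted p = 0.0047).

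MRPS18A, MRPS18B and MRPS18C are 3 paralogues of a single bacterial protein. After knockdown in HMLE-TWIST1 at day 4 MRPS18C rose by 0.54, while MRPS18A (0.05) and MRPS18B (0.11) did not pass. Between days in HMLE with scramble MRPS18B fell by 0.57 (adjusted p = 1.3e-07), with MRPS18A at -0.01 and MRPS18C at 0.17. The difference between paralogues was not tested.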
